A study of Mus musculus with 4 samples.

Results

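S100 proteins are small calcium-binding proteins that work as dimers inside cells and, for some members, as signals outside them. The genes followed here were S100a1, S100a8, S100a9, S100b, S100a4, S100a6, S100a10, S100a11 and S100a13, and a gene counted as measured when at least 1 probe set carried its symbol and no other. Of these 9 genes, 8 were measured, by 12 of the 45037 probe sets tested in the series. The probe set of S100a11 was annotated to several symbols, so no value is given for that gene.

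The series compared hearts of transgenic mice carrying a Sirt1 transgene (Tg-Sirt1, 2 arrays) with hearts of wild type mice (NTg, 2 arrays), to ask how Sirt1, an NAD-dependent deacetylase, alters cardiac gene expression. Per the labels' protocols, both groups were euthanised by 120 mg/kg of pentobarbital and the hearts frozen before total RNA was taken. The sources used here do not give the promoter or line of the transgene, nor the age and sex of the mice. Values are log2 expression after RMA, a method that corrects background, equalises the distributions over arrays and joins all probes of a probe set into 1 value.

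The arrays labelled Tg-Sirt1 1 and NTg 1 carried nearly the same values, and this limits each comparison of the labels. Over all tested probe sets the SD of their difference was 0.0759 log2 units and 0 probe sets lay over 2-fold apart, whereas the other 5 pairs had SDs of 0.342 to 0.405 and 549 to 1100 probe sets over 2-fold apart. Across the 12 S100 probe sets this pair differed by a median of 0.02 and by at most 0.16 log2 units. Each array keeps its label throughout. The values do not tell whether these 2 arrays came from separate hearts or from 1 RNA, so a mean and SD with n = 2 describe 2 arrays of a label and may not stand for separate mice. The transgene's own gene, Sirt1, read 7.16 on Tg-Sirt1 1 and 7.93 on Tg-Sirt1 2, against 7.30 and 7.17 on NTg 1 and 2 (limma log2 fold change 0.31 ± 0.27, SE, adjusted p = 0.996), so it was higher on 1 of the 2 arrays labelled Tg-Sirt1. Which stretch of the Sirt1 transcript its single probe set covers was not determined. All 10 cardiomyocyte markers, which begin with Myh6, Tnnt2 and Tnni3, lay above the median of every array. In whole hearts, fewer cells of a type and less RNA per cell cannot be told apart.

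The S100 genes are grouped here by a cell type that expresses them, and these groups are not exclusive. S100a1 is the cardiomyocyte member and modulates calcium release and uptake by the sarcoplasmic reticulum. S100a8 and S100a9 form calprotectin, the abundant heterodimer of neutrophil cytosol that is released at sites of inflammation. S100b is used as a marker of Schwann cells and other glia, and S100a4, S100a6, S100a10 and S100a13 are expressed by fibroblasts and other stromal cells among others. In the mouse genome 8 of the 9 genes lie on chromosome 3 and S100b lies on chromosome 10.

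No S100 gene passed the test between the labels. In limma, fitted over all 45037 probe sets, 0 of the 8 measured genes passed an adjusted p of 0.05, beside 0.0% of all probe sets, and 0 of the 12 S100 probe sets had even an unadjusted p under 0.05 (28 probe sets did in the whole series). By the brightest probe sets, the Tg-Sirt1 mean was higher for 4 of the 8 genes, all stromal. It was lower for the other 4, which were the cardiomyocyte, neutrophil and glial members. Over all genes it was higher for 53.1%. This split was not stable. Dimmer probe sets of S100b (0.105) and S100a10 (-0.125) went the other way, while those of S100a1 (-0.085) and S100a10 (0.165) did not. Without NTg 2 the fold changes of S100a8, S100a9, S100b, S100a10 and S100a13 turned sign. Since a Tg-Sirt1 array nearly equals an NTg array, a count of 0 calls does not show that the 2 labels were alike. Each log2 fold change between the labels averages the small difference within that pair with the difference of Tg-Sirt1 2 from NTg 2. The latter was -1.45 for S100a8 and -1.38 for S100a9, so the fold changes given below are smaller in size. A two-sided exact permutation test reaches 0.333 at best with 2 arrays on each side.

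What did separate the S100 genes was the array NTg 2. On it the calprotectin genes and S100b were at their highest and the 4 stromal genes at their lowest, while S100a1 stood apart on Tg-Sirt1 2 instead. NTg 2 was above the other 3 arrays at 3 of 8 S100 genes and below them at 4, and over all genes these shares were 34.3% and 37.9%, so the counts alone are not particular to the family. NTg 2 also differed as a whole. Its summed linear signal over all genes was 7685694.5, against 8596294.1 to 8669243.3 on the other arrays, while its median over probe sets was the highest at 6.3. Control probe sets had more 3′ over 5′ signal on it than on the near-identical pair, as given below. The parts of these array-wide differences in the S100 values were not tested. The sizes of the S100 differences are given gene by gene below, for the brightest probe set of each gene unless another is named.

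**Figure D1:**
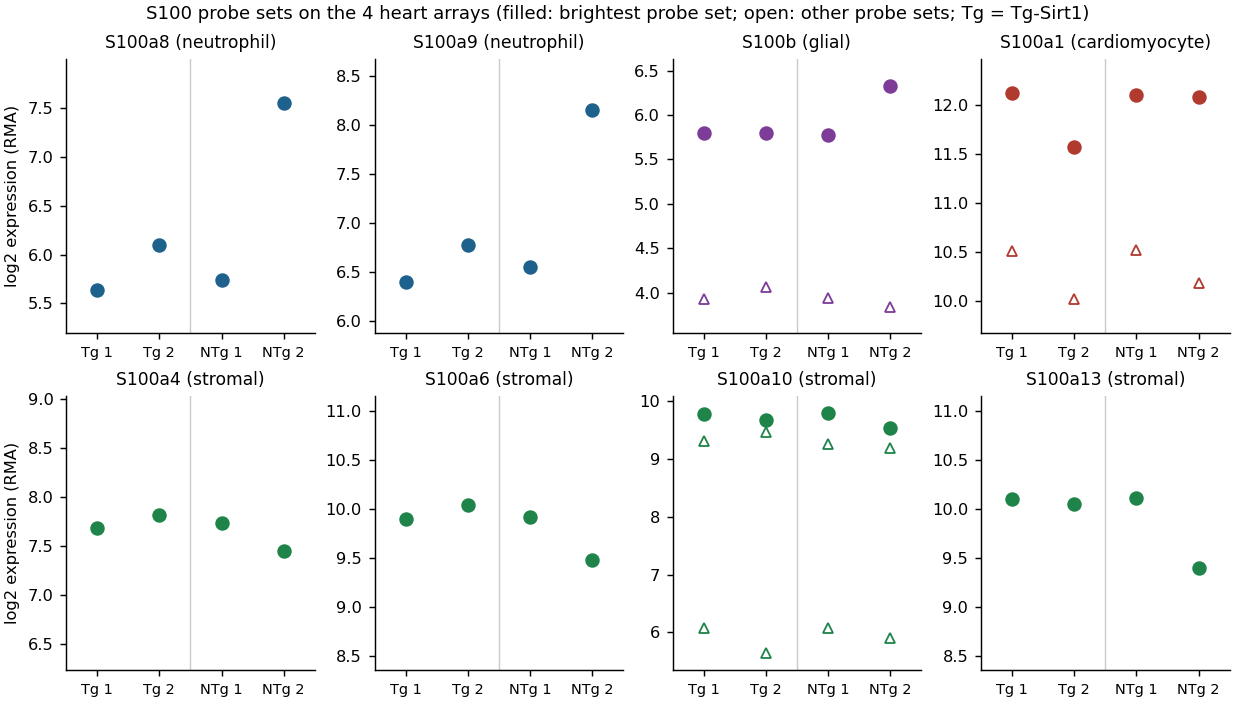
Log2 expression (y axis) of the 12 S100 probe sets on the 4 arrays (x axis, Tg for Tg-Sirt1), 1 panel per gene, each panel with its own range. Filled circles are the brightest probe set of the gene and open triangles its other probe sets. S100a8 and S100a9 reached 7.55 and 8.15 on NTg 2, and S100a13 was lowest there at 9.40.

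The calprotectin genes sit side by side on chromosome 3, with 0 protein-coding genes annotated between them. The 250 bases upstream of each annotated start are shown because both neighbours were highest on NTg 2 and by similar amounts. The sequences are from RefSeq (GRCm38.p6) and are written 5′ to 3′ along the coding strand. Capitals mark the TATA-type letters TATAAA, the PU.1-type core GAGGAA and the C/EBP-type letters TTGCNNAA, each searched on both strands. In S100a8 a GAGGAA match on the other strand, written TTCCTC, adjoins TATAAA.
S100a8, chr3:90668821-90669070, + strand: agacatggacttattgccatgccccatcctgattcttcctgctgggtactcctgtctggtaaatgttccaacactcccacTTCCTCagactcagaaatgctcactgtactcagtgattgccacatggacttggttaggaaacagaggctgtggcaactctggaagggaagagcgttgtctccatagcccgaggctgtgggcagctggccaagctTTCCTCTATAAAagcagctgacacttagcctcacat
S100a9, chr3:90695722-90695971, - strand: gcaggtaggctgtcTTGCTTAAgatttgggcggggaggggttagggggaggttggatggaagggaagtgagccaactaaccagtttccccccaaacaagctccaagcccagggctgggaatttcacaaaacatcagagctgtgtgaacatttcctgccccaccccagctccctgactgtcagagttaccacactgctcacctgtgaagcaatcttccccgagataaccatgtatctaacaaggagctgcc

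TATAAA occurred in S100a8 from position -30 to -25 relative to the start, and GAGGAA occurred there in 2 places. TTGCNNAA occurred once in S100a9, as TTGCTTAA. Of the 32851 windows of the same length in the table, 12.4% held TATAAA, 23.3% held GAGGAA and 9.56% held TTGCNNAA. Windows were found for 8 of the 9 S100 genes, and 2 of these held TATAAA, 2 held GAGGAA and 1 held TTGCNNAA. These matches describe letters, not bound sites, and the 2 calprotectin windows shared none of the 3 motifs.

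S100a8, the smaller calprotectin subunit, read 5.64 and 6.10 on Tg-Sirt1 1 and 2, against 5.74 and 7.55 on NTg 1 and 2. The NTg 2 value stood clear of the other 3, and the NTg 1 value fell between the 2 Tg-Sirt1 values. Only the NTg 2 value lay above the median of its array (6.22 to 6.30 over the 4 arrays). The means were 5.87 ± 0.33 in Tg-Sirt1 and 6.64 ± 1.28 in NTg (SD, n = 2 each), and the spread within NTg exceeded the difference between the labels. S100a9, the larger subunit, read 6.39 and 6.77 on Tg-Sirt1 1 and 2, against 6.55 and 8.15 on NTg 1 and 2. The means were 6.58 ± 0.27 in Tg-Sirt1 and 7.35 ± 1.13 in NTg (SD, n = 2 each).

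The log2 fold change of S100a9 was -0.77 ± 0.53 (SE), with a 95% confidence interval from -2.12 to 0.58 and a limma adjusted p of 0.996. That of S100a8 was -0.775, with an interval from -2.30 to 0.75. Without NTg 2 the log2 fold changes were 0.13 for S100a8 and 0.03 for S100a9, and without NTg 1 they were -1.68 and -1.57. With Tg-Sirt1 1 and NTg 1 averaged and counted once as Tg-Sirt1 they were -1.66 and -1.53 (limma adjusted p = 0.508 for both), and with the average counted as NTg they were -0.52 and -0.54.

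Against the mean of the near-identical arrays, NTg 2 was 3.63 times as high for S100a8 and 3.20 times as high for S100a9, a difference between single arrays that has no test. For S100a8 the near-identical arrays were below their medians and were not shown to be above background, so the size of this ratio is uncertain. These differences of 1.86 and 1.68 log2 units ranked 14th and 16th from the top among 18193 genes, of which 0.291% were over 2-fold higher on NTg 2. Tg-Sirt1 2 was also above that mean for S100a8 and S100a9, by 0.41 and 0.30 log2 units, though 0 S100 genes passed 2-fold there (0.11% of all genes were over 2-fold higher). No S100 gene was over 2-fold lower on either array, compared with 0.737% of genes on Tg-Sirt1 2 and 1.08% on NTg 2. The arrays of the near-identical pair differed by 0.10 at S100a8 and 0.16 at S100a9.

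Most other neutrophil genes shared the direction on NTg 2, at smaller sizes. Of 11 measured markers from a list of 13, 9 were highest on NTg 2, as were 34.3% of all genes. Their median was 0.23 log2 units over the mean of the near-identical pair, against a median of -0.005 over all genes. Single markers ran from -0.10 for Ltf to 0.765 for Lcn2, followed by Cxcr2 (0.57) and Mmp8 (0.56), named after their values were seen. Lcn2 and Mmp8 lay below the median of every array. The summed linear signal of the 11 markers was 1001 and 1008 on Tg-Sirt1 1 and 2, against 989 and 1240.4 on NTg 1 and 2. The neutrophilic granule protein gene Ngp read 6.71 and 6.70 on Tg-Sirt1 1 and 2, against 6.70 and 7.05 on NTg 1 and 2. The cathelicidin gene Camp read 6.60 and 6.49 in Tg-Sirt1, against 6.57 and 6.78 in NTg. Ltf, encoding lactoferrin of the secondary granules, was not higher on NTg 2, with 5.84 and 5.79 in Tg-Sirt1 against 5.84 and 5.74 in NTg. Of the 11 markers 4 lay below the median of every array, and the part of neutrophils in the S100a8 and S100a9 values was not tested. In limma 0 of the 11 passed, with a median log2 fold change of -0.13 between the labels, and of 0.04 without NTg 2.

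The mean-centred profiles of S100a8 and S100a9 over the 4 arrays lay 0.16 log2 units apart as a Euclidean distance. Among 16307 genes other than S100 members and clone names, Fbp2 (0.10), Ces1d (0.14) and Casq1 (0.21) were nearest to S100a8, and Cdh4 (0.21), Cnksr1 (0.22) and Fbp2 (0.23) to S100a9. Fbp2 encodes the muscle fructose bisphosphatase and Casq1 the calsequestrin of skeletal muscle. With 4 arrays, of which 2 are near-identical, such likeness rests mainly on NTg 2.

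S100b had its highest value on NTg 2 as well, at a lower size. It read 5.80 and 5.80 on Tg-Sirt1 1 and 2, against 5.78 and 6.33 on NTg 1 and 2, so that 3 arrays lay within 0.02 log2 units and NTg 2 was 1.45 times as high as the near-identical pair. The mean was 5.80 ± 0.00 in Tg-Sirt1 and 6.06 ± 0.39 in NTg (SD, n = 2 each). The log2 fold change was -0.26 with a 95% confidence interval from -0.80 to 0.29 (limma adjusted p = 0.996), and it was 0.02 without NTg 2 and -0.53 without NTg 1. The difference of 0.54 between NTg 2 and the pair ranked 497th of 18193 genes. On 3 of the 4 arrays this probe set lay below the median of the array.

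The dimmer S100b probe set was not higher on NTg 2. It read 3.93 and 4.06 on Tg-Sirt1 1 and 2, against 3.94 and 3.84 on NTg 1 and 2, below the median of every array and lowest on NTg 2. With both probe sets averaged the log2 fold change of S100b was -0.08.

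Schwann cell and glial markers were divided. Sox10, a transcription factor of Schwann cells, read 8.10 and 8.20 on Tg-Sirt1 1 and 2, against 8.11 and 8.55 on NTg 1 and 2. The myelin basic protein gene Mbp read 7.55 and 7.60 in Tg-Sirt1, against 7.53 and 7.97 in NTg. Pmp22, a myelin protein gene that fibroblasts also express, was lower on NTg 2, with 10.40 and 10.30 in Tg-Sirt1 against 10.37 and 9.51 in NTg. Of 9 measured markers from a list of 12, 3 were highest and 2 lowest on NTg 2, with a median difference of 0.03 from the pair, and 0 passed in limma (median log2 fold change 0.025, and 0.04 without NTg 2). The part of glial cells in the S100b value was not tested. The profiles nearest to S100b were those of Tmtc1, Klk1b1 and Dhrs2, at distances of 0.02 each, but 973 genes lay within 0.2 of it.

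**Figure D2:**
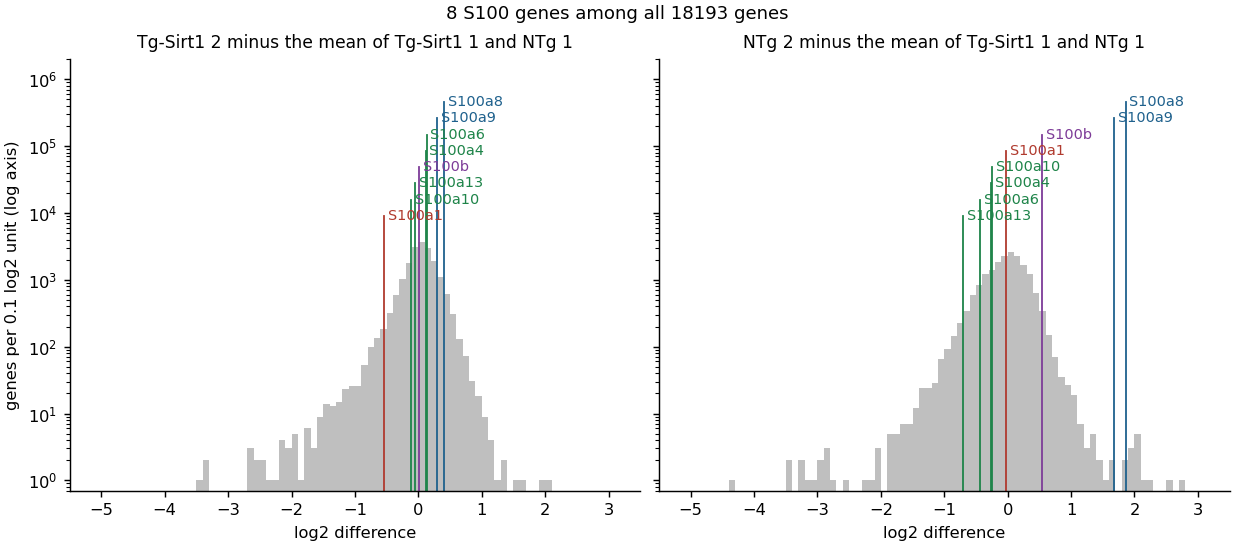
Numbers of genes (y axis, log scale) by log2 difference (x axis, bins of 0.1) of Tg-Sirt1 2 (left) and NTg 2 (right) from the mean of the near-identical arrays Tg-Sirt1 1 and NTg 1. Coloured lines mark the 8 S100 genes, at heights set only for legibility; S100a8 and S100a9 lie at 1.86 and 1.68 in the right panel and S100a1 at -0.54 in the left one.

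The stromal S100 genes were lower on NTg 2 than on any other array, most clearly S100a13. S100a13, which takes part in the export of proteins without a signal peptide such as FGF1, read 10.10 and 10.05 on Tg-Sirt1 1 and 2, against 10.11 and 9.40 on NTg 1 and 2. Its means were 10.07 ± 0.04 in Tg-Sirt1 and 9.76 ± 0.50 in NTg (SD, n = 2 each), with a log2 fold change of 0.32 and a 95% confidence interval from -0.33 to 0.97 (limma adjusted p = 0.996). The difference of -0.705 between NTg 2 and the pair ranked 640th from the bottom among 18193 genes. Those of S100a6 (-0.43), S100a4 (-0.255) and S100a10 (-0.25) ranked only 2149th, 4215th and 4291st from the bottom.

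S100a6, or calcyclin, which is found in fibroblasts and epithelial cells, read 9.90 and 10.04 on Tg-Sirt1 1 and 2, against 9.92 and 9.48 on NTg 1 and 2. Its log2 fold change was 0.27 ± 0.19 (SE). S100a4, also called fibroblast-specific protein and found in macrophages too, read 7.68 and 7.82 on Tg-Sirt1 1 and 2, against 7.73 and 7.45 on NTg 1 and 2, with a log2 fold change of 0.16 ± 0.16 (SE). For both genes the NTg 1 value lay between the 2 Tg-Sirt1 values, so the labels overlapped.

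S100a10 has lost calcium binding and pairs with annexin A2 at the cell membrane. Its brightest probe set read 9.78 and 9.68 on Tg-Sirt1 1 and 2, against 9.80 and 9.54 on NTg 1 and 2, with a log2 fold change of 0.06 ± 0.15 (SE). A second probe set read 9.32 and 9.47 on Tg-Sirt1 1 and 2, against 9.27 and 9.19 on NTg 1 and 2, and was the only 1 of the 12 S100 probe sets on which the labels did not overlap. Another, dim probe set had its lowest value on Tg-Sirt1 2, with 6.07 and 5.65 in Tg-Sirt1 against 6.07 and 5.90 in NTg. The 3 probe sets thus had log2 fold changes of 0.06, 0.17 and -0.125, and none passed. At the level of genes the labels overlapped for all 8 S100 genes. They did not overlap for 20.7% of all genes, and 8 genes are too few to set apart from that share.

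Without NTg 2 the log2 fold changes of the 4 stromal genes ran from -0.07 for S100a10 to 0.05 for S100a6. Without NTg 1 they ran from 0.19 for S100a10 to 0.68 for S100a13. With the near-identical arrays taken as a single Tg-Sirt1 value the lowest unadjusted p among them was that of S100a13, with a log2 fold change of 0.68 and a limma adjusted p of 0.508.

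Fibroblast markers were lower on NTg 2 too, by a larger median than the stromal S100 genes. All 10 measured markers were lowest on NTg 2, as were 37.9% of all genes. Their median was -0.99 log2 units against the near-identical pair, compared with -0.34 for the 4 stromal S100 genes and -0.005 over all genes. The receptor gene Pdgfra read 9.81 and 9.97 on Tg-Sirt1 1 and 2, against 9.82 and 9.31 on NTg 1 and 2. The fibroblast transcription factor gene Tcf21 read 9.25 and 9.06 in Tg-Sirt1, against 9.25 and 8.18 in NTg. The matrix proteoglycan gene Lum read 11.54 and 11.40 in Tg-Sirt1, against 11.54 and 10.57 in NTg. The summed linear signal of the list was 33884 and 26263 on Tg-Sirt1 1 and 2, against 33791 and 18747 on NTg 1 and 2. Between the labels 0 of the 10 passed and all 10 had a higher Tg-Sirt1 mean (median log2 fold change 0.28), but only 2 of 10 did without NTg 2 (median -0.15). On Tg-Sirt1 2 the markers had a median of -0.32 against the pair while the stromal S100 genes had one of 0.03. The part of fibroblasts in the stromal S100 values was not tested.

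**Figure D3:**
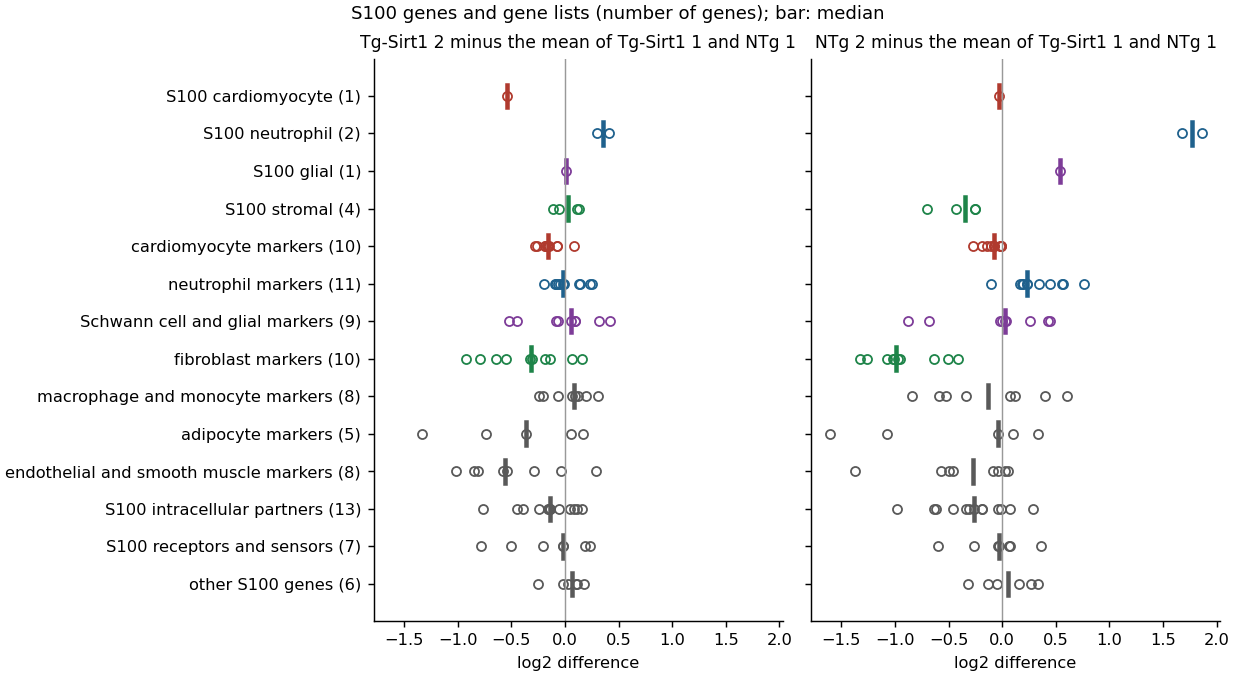
Log2 difference (x axis) of Tg-Sirt1 2 (left) and NTg 2 (right) from the mean of the near-identical arrays. Rows are S100 genes by assigned cell type and gene lists, with the number of genes in brackets. Each circle is a gene and each bar the median of a row. On NTg 2 the neutrophil S100 genes had a median of 1.77, the stromal ones -0.34 and the fibroblast markers -0.99.

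S100a1, the cardiomyocyte member, stood apart on Tg-Sirt1 2 rather than on NTg 2. Its brightest probe set read 12.12 and 11.57 on Tg-Sirt1 1 and 2, against 12.10 and 12.08 on NTg 1 and 2, so that 3 arrays lay within 0.04 of each other. The means were 11.85 ± 0.39 in Tg-Sirt1 and 12.09 ± 0.01 in NTg (SD, n = 2 each). The log2 fold change of S100a1 had a 95% confidence interval from -0.79 to 0.30 (limma adjusted p = 0.996). It was 0.03 without Tg-Sirt1 2 and -0.52 without the array labelled Tg-Sirt1 1. The difference of -0.54 between Tg-Sirt1 2 and the pair ranked 554th from the bottom among 18193 genes.

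The other S100a1 probe set was low on NTg 2 too. It read 10.51 and 10.02 on Tg-Sirt1 1 and 2, against 10.52 and 10.18 on NTg 1 and 2. The 2 probe sets therefore gave the same order for Tg-Sirt1 2 but not for NTg 2, where their differences from the near-identical pair were -0.03 for the brightest and -0.335 for the other.

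Markers of cardiomyocytes were a little lower on Tg-Sirt1 2 as well, with 8 of 10 at their lowest there and a median of -0.16 against the pair. Over all genes 4213 of 18193 were lowest on Tg-Sirt1 2 and the median was 0.04. Between the labels 0 of the 10 passed, with a median log2 fold change of -0.05. Myh6, the adult myosin heavy chain, read 13.93 and 13.86 on Tg-Sirt1 1 and 2, against 13.93 and 13.92 on NTg 1 and 2. Tnnt2, cardiac troponin T, read 13.82 and 13.56 in Tg-Sirt1, against 13.82 and 13.74 in NTg. Tnni3, cardiac troponin I, read 13.85 and 13.77 in Tg-Sirt1, against 13.84 and 13.74 in NTg. The excess of 3′ over 5′ signal in control probe sets was largest on Tg-Sirt1 2. For Actb this was 1.25 and 1.92 log2 units on Tg-Sirt1 1 and 2, against 1.22 and 1.44 on NTg 1 and 2, and for Gapdh 0.19 and 1.34, against 0.18 and 0.69. A larger value means less signal from the 5′ end of the transcript. NTg 2 also lay above both near-identical arrays for Actb and Gapdh. The part of RNA quality in the S100a1 value, and in the S100 values on NTg 2, was not tested. The profiles nearest to S100a1 were those of Eri3, Pla2g2f and Ltbr, at distances of 0.02 to 0.03, with 379 genes within 0.2.

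S100a1 and S100a13 are adjacent on chromosome 3, and their RefSeq promoter windows of 300 bases, on opposite strands, share 204 bases. The brightest S100a1 probe set was low on Tg-Sirt1 2, where S100a13 differed from the near-identical pair by -0.055, and S100a13 was low on NTg 2, where the S100a1 probe sets differed from it by -0.03 for the brightest and -0.335 for the other.

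**Figure D4:**
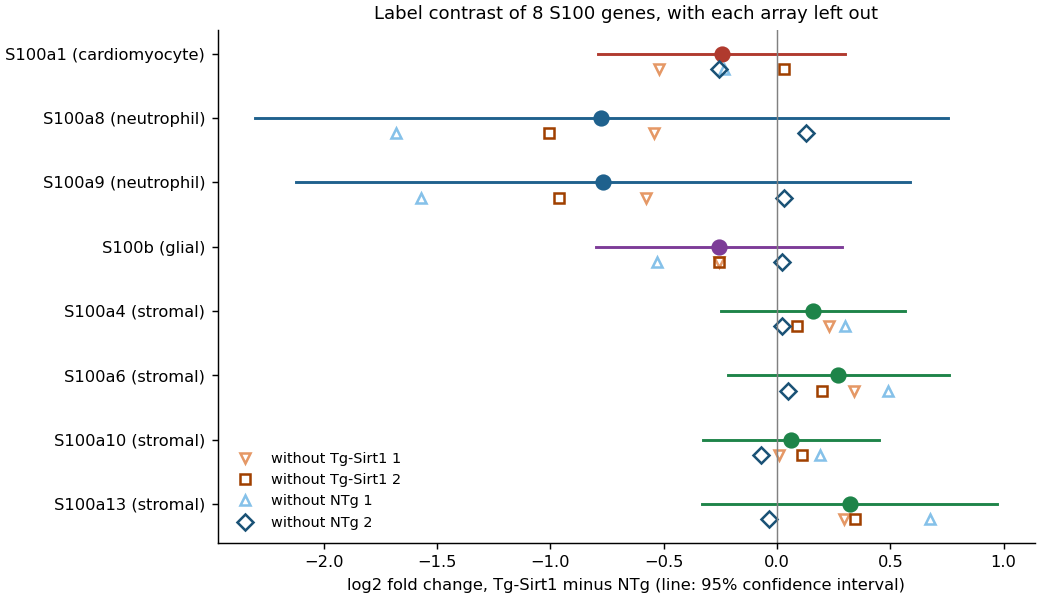
Log2 fold change of Tg-Sirt1 minus NTg (x axis) for 8 S100 genes (y axis). Filled circles and lines are the limma estimate and its 95% confidence interval, and open symbols the estimate with 1 array left out. All 8 intervals include 0, and S100a8 moved between -1.68 without NTg 1 and 0.13 without NTg 2.

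The partners and receptors of S100 proteins did not pass either. Of the genes on all 11 lists given here, 0 had an unadjusted limma p under 0.05 (lowest 0.101). Of 13 measured intracellular partners 9 had a higher and 4 a lower Tg-Sirt1 mean and 0 passed, with a median log2 fold change of 0.06, but only 4 were higher without NTg 2. Anxa2, the annexin that binds S100a10, read 11.28 and 10.82 on Tg-Sirt1 1 and 2, against 11.25 and 10.28 on NTg 1 and 2. Its difference of NTg 2 from the pair was thus -0.985 log2 units, and that of the brightest S100a10 probe set was -0.25. The calcium channel Ryr2 and the calcium pump Atp2a2, which S100a1 binds, differed less. Ryr2 read 12.43 and 12.51 on Tg-Sirt1 1 and 2, against 12.42 and 12.24 on NTg 1 and 2. Atp2a2 read 14.08 and 13.93 in Tg-Sirt1, against 14.09 and 14.07 in NTg.

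Of 7 receptors and sensors of extracellular S100 proteins, 2 had a higher and 5 a lower Tg-Sirt1 mean, with a median log2 fold change of -0.11 and 0 past the threshold. Ager, the receptor for advanced glycation end products that binds several S100 proteins, read 6.85 and 6.82 on Tg-Sirt1 1 and 2, against 6.83 and 6.91 on NTg 1 and 2. Tlr4, the innate immune receptor that responds to calprotectin, read 7.01 and 7.23 in Tg-Sirt1, against 7.07 and 6.78 in NTg. Tlr4 was thus lowest on NTg 2, where S100a8 and S100a9 were highest, but the list was divided there. Of the 7 genes 3 were highest and 2 lowest on NTg 2, beside 34.3% and 37.9% of all genes. Bsg, or basigin, which binds S100a9, read 12.16 and 11.39 in Tg-Sirt1, against 12.19 and 11.58 in NTg.

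Of the 6 other S100 genes measured, 1 had a higher and 5 a lower Tg-Sirt1 mean and 0 passed. S100a16 read 10.40 and 10.14 on Tg-Sirt1 1 and 2, against 10.39 and 10.26 on NTg 1 and 2. S100a14, an epithelial member, read 6.0 and 6.09 in Tg-Sirt1, against 6.13 and 6.02 in NTg. S100a3 read 5.85 and 6.02 in Tg-Sirt1, against 5.83 and 5.52 in NTg, a gap of 0.02 between the lowest Tg-Sirt1 and the highest NTg array. For S100a7l2 and S100g the labels did not overlap either, with lower values in Tg-Sirt1. The highest Tg-Sirt1 and lowest NTg values were 4.79 and 4.8 for S100a7l2, and 4.21 and 4.23 for S100g. All 3 of these genes, S100a3 included, lay below the median of every array. The labels did not overlap for 20.7% of all genes, and 6 genes are too few to set apart from that share. None of these 6 came near the difference of S100a8 and S100a9 on NTg 2, since their differences from the pair there ran from -0.32 to 0.33. Among 7 measured calcium-binding proteins of muscle and endoplasmic reticulum, with and without EF-hands, 4 had a higher Tg-Sirt1 mean, 0 passed and the median log2 fold change was 0.03. Tnnc1, cardiac troponin C, read 13.39 and 13.12 on Tg-Sirt1 1 and 2, against 13.36 and 13.30 on NTg 1 and 2. Casq2, cardiac calsequestrin, read 12.43 and 12.12 in Tg-Sirt1, against 12.44 and 11.93 in NTg. Hrc, a calcium-binding protein of the sarcoplasmic reticulum, read 13.06 to 13.11 on the 4 arrays.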

How the data were processed

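Total RNA of mouse hearts was measured on 4 arrays, 2 per label, and whether the near-identical arrays came from separate hearts is not known. The authors deposited log2 values with 1 value per probe set and array, made with RMA and Affymetrix Expression Console, per the submitters' processing notes, which give no versions. No scanner files or detection calls were used. Precision is limited by the small number of arrays. Of 45101 probe sets 64 controls were left out. Names came from the platform annotation, in which 34945 tested probe sets had 1 symbol, 932 several and 9160 none, covering 18193 genes. A gene is represented by its brightest 1-symbol probe set.

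The labels were compared with limma 3.58.1 (R 4.3.3, lmFit and eBayes, prior degrees of freedom 3.10, residual 2) over 45037 probe sets, two-sided, Benjamini-Hochberg adjusted. The fit was run on simulated data with separate arrays and with Tg-Sirt1 1 a copy of NTg 1. In the copy case the simulated differences were underestimated, so this check does not show that the fit finds differences on these arrays. Differences between single arrays were described without tests, against the mean of the near-identical arrays Tg-Sirt1 1 and NTg 1. The genes named were all S100 members, the first 3 measured of each of 11 lists, and the 3 nearest centred profiles of 4 members. Members and lists were chosen with earlier results of these data known. Alternatives covered the replicate block, left-out arrays, the pair counted once, a dim filter, normalization, an offset, the prior and the probe set rule.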

Additional observations from a re-analysis of the deposited data

How the results depend on the processing

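Over 13 alternatives 0 S100 genes passed, and the number with a higher Tg-Sirt1 mean stayed between 3 and 5. Of 103 recomputed fold changes 7 turned sign. Without NTg 2 the log2 fold changes were 0.13 for S100a8, 0.03 for S100a9, 0.02 for S100b, -0.07 for S100a10 and -0.035 for S100a13, and without Tg-Sirt1 2 that of S100a1 was 0.03. After a second quantile normalization that of S100a10 was -0.0419. Nearer to 0 than before, without a change of sign, were S100a13 (0.215), S100a6 (0.17), S100a4 (0.13) and S100b (-0.21). Further from 0 were S100a1 (-0.31), S100a8 (-0.79) and S100a9 (-0.82). Leaving out 1 array at a time gave -0.52 to 0.03 for S100a1, -1.68 to 0.13 for S100a8, -1.57 to 0.03 for S100a9, -0.53 to 0.02 for S100b, 0.02 to 0.30 for S100a4, 0.05 to 0.49 for S100a6, -0.07 to 0.19 for S100a10 and -0.035 to 0.675 for S100a13. An arm left with 1 array is assumed to vary like the other label. With the replicate number as a block the lowest adjusted p of the 8 genes was 0.931 and no call changed. Same-numbered deviations correlated at r = 0.293 across probe sets, and the labels do not say that a number pairs mice. The filter on dim probe sets, a mean of at least 6 over the arrays, removed S100b. It kept S100a8 only through the value of 7.55 on NTg 2, as the others were 5.64, 6.10 and 5.74.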

Other observations

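Cell type markers beyond those set beside the S100 genes also differed among the arrays. Macrophage and monocyte markers, a further possible source of S100a4, S100a8 and S100a9, were divided on NTg 2, with 3 of 8 at their highest and 4 at their lowest there. Adgre1, the F4/80 antigen, read 8.18 and 8.30 on Tg-Sirt1 1 and 2, against 8.23 and 8.28 on NTg 1 and 2. Csf1r, the receptor for macrophage colony-stimulating factor, read 11.19 on Tg-Sirt1 2, the highest of the 4 arrays, against 10.66 on NTg 2, the lowest, and the lysosomal gene Cd68 read 7.46 and 7.37 in Tg-Sirt1, against 7.40 and 6.59 in NTg. In limma 0 of the 8 passed.

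Of 8 endothelial and smooth muscle markers 6 were lowest on Tg-Sirt1 2, as were 4213 of all 18193 genes. Their median was -0.56 against the near-identical pair, and that of all genes 0.04. Pecam1 read 8.66 and 7.79 on Tg-Sirt1 1 and 2, against 8.62 and 8.07 on NTg 1 and 2, and Kdr, a receptor for vascular endothelial growth factor, read 11.18 and 10.36 in Tg-Sirt1, against 11.17 and 10.68 in NTg. Cdh5, the endothelial cadherin, read 8.94 to 9.0 on the 4 arrays. Fat cells can express S100b, and of 5 adipocyte markers 1 was highest and 1 lowest on NTg 2, with a median of -0.04 against the pair. Adipoq read 7.56 and 6.79 in Tg-Sirt1, against 7.50 and 5.92 in NTg. Ucp1 and Retn are named after their values were seen. Ucp1 read 7.34 and 5.97 in Tg-Sirt1, against 7.26 and 6.23 in NTg. Retn read 6.88 and 6.96 in Tg-Sirt1, against 6.92 and 7.23 in NTg. NTg 2 thus differed from the pair by -1.61 for Adipoq and -1.07 for Ucp1, and by 0.33 for Retn. The part of fat cells in the S100b value was not tested. Cidec read 4.39 to 4.79 and Lep 4.56 to 4.77 on the 4 arrays, below the median of every array. The list median of -0.04 was the value of Cidec. In limma 0 of these 13 genes passed.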
